A study of Mus musculus with 20 samples.

Results

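AMPA and kainate receptors are the tetrameric glutamate-gated cation channels that carry fast excitatory transmission, and their pore-forming subunits are encoded by Gria1 to Gria4 (AMPA, GluA1 to GluA4) and Grik1 to Grik5 (kainate, GluK1 to GluK5). The members described here are these 9 genes, taken by symbol from a deposited count table of 37051 loci, of which 26475 carried a symbol. Each symbol matched 1 locus that no other symbol shared, and all 9 genes passed the filter on low counts among the 17206 genes tested.

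RNA was sequenced from the whole striatum of 20 male mice, 1 library per mouse. Mice of a line bred for overactivity in the cage were set against mice of a control line, and d-amphetamine, which releases dopamine from nerve terminals, against saline. The 4 groups of 5 mice were control line with saline, control line with amphetamine, overactive line with saline and overactive line with amphetamine. All mice are labelled Collaborative Cross, a population bred from several inbred founder strains, and were about 6 months old. The dose was 25 mg/kg, and tissue was collected 2 hours later in every group. The sources used here do not say how many litters or families each line came from, so a line difference cannot be told apart from a difference between the families sampled.

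In the striatum, glutamate reaches the projection neurons mainly from cortex and thalamus, and AMPA receptors carry most of the fast current. GluA2 makes an AMPA receptor poorly permeable to calcium, so the ratio of Gria2 to the other subunits is a common measure of receptor makeup. Among kainate subunits, GluK1 to GluK3 form channels on their own, whereas GluK4 and GluK5 bind kainate with high affinity and need a partner from GluK1 to GluK3 to form one.

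The calcium permeability is set at 1 residue of the pore loop, the Q/R site. The genome encodes glutamine there, and the enzyme ADAR2 (gene Adarb1) edits the transcript so that arginine is read instead, nearly completely in Gria2 and partly in Grik1 and Grik2. The 57-base coding stretches around this codon are shown for 1 calcium-permeable and 1 edited AMPA subunit and for 1 edited and 1 unedited kainate subunit, to show how alike the genomic codons are. They are GENCODE M21 transcript sequences (build GRCm38), written 5′ to 3′ on the coding strand, with the Q/R-site codon in capitals.
Gria1: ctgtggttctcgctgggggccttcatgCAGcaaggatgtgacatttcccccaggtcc
Gria2: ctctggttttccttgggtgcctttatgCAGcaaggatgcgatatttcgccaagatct
Grik2: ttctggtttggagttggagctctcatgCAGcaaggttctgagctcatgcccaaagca
Grik5: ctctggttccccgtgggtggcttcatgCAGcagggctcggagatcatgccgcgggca
The stretches of Gria1 (chr11:57243067-57283513, plus strand), Gria2 (chr3:80702653-80706940, minus strand) and Grik2 (chr10:49240774-49244358, minus strand) each cross an intron, so these spans are longer than the sequence. That of Grik5 (chr7:25022470-25022526, minus strand) lies in 1 coding exon. The codon is CAG in 8 of the 9 genes and CAA in Gria4, so all 9 genes encode glutamine in the genome. Gene counts pool edited and unedited transcripts and all splice forms, so neither editing nor the flip and flop exons can be read from them.

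On GRCm38 the AMPA genes lie on chromosome 11 (Gria1, 57011387 to 57330244), chromosome 3 (Gria2, 80681450 to 80802835), the X chromosome (Gria3, 41400854 to 41678601) and chromosome 9 (Gria4, 4417896 to 4796234). The kainate genes lie on chromosome 16 (Grik1, 87895900 to 88290265), chromosome 10 (Grik2, 49094833 to 49788766), chromosome 4 (Grik3, 125490700 to 125714173), chromosome 9 (Grik4, 42518135 to 42944493) and chromosome 7 (Grik5, 25009849 to 25072346). Other annotated genes share at most 0.99% of the exon bases of a member (Grik4 with Gm24420), so overlap with other genes could move their counts little.

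Libraries held 31393788 to 53773028 counts. Markers fixed for striatal projection neurons were high in every library (summed level of 12 genes 5392 to 8859 CPM, the count scaled to a common library size), led by Ppp1r1b, which encodes the dopamine-regulated phosphatase inhibitor DARPP-32, so the tissue label fitted its markers. Markers of neighbouring tissue were also present and differed between groups. The summed level of 12 cortical and hippocampal excitatory neuron markers was 473 to 1101 CPM in control saline, 835 to 1158 in control amphetamine, 266 to 488 in overactive saline and 367 to 1285 in overactive amphetamine libraries. Its leading gene, Slc17a7, which encodes the vesicular glutamate transporter of cortical terminals, had means of 363 ± 184, 503 ± 67.9, 137 ± 66.9 and 414 ± 235 CPM (SD, n = 5) in that order. The 10 thalamic, septal and other neighbouring markers summed to 129 to 228, 122 to 193, 190 to 474 and 133 to 414 CPM. Overactive saline libraries 1 and 4 and overactive amphetamine libraries 2 and 3 were highest in them. Some fold changes are also given without these 4 libraries. Subunit ratios and correlations between genes were not recomputed without them. No marker of these 3 lists was at 0. Of the other lists, Slc1a2 (astrocytes) and Mbp (oligodendrocytes) are listed at 0 counts in all 20 libraries, and the other 7 astrocyte and 7 oligodendrocyte markers were present.

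**Figure D1:**
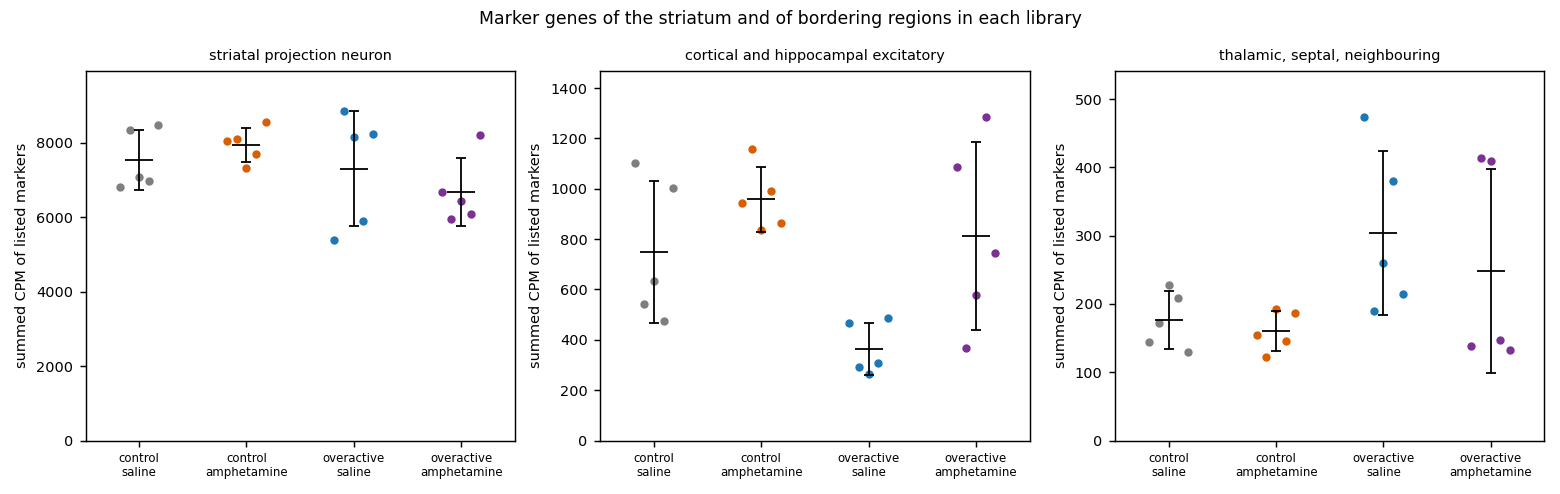
Summed CPM of marker genes (y axis) in each library by group (x axis), for 12 striatal projection neuron, 12 cortical and hippocampal and 10 thalamic, septal and neighbouring markers. Points are libraries, bars the mean ± SD of 5. The cortical sum is lowest in overactive saline (266 to 488 CPM), and 4 overactive libraries stand highest in the thalamic sum (380 to 474 CPM).

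Gria1 mRNA was the most abundant member for its length, at 86.2 ± 4.38 CPM per kilobase of annotated exon (SD over 20 libraries). Gria2 and Grik5, the gene of the high-affinity subunit GluK5, followed at 59.5 ± 5.22 and 59.3 ± 5.64 CPM per kilobase. These 2 did not separate, since Gria2 was above Grik5 in 8 of 20 libraries. Gria3 (27.0 ± 2.84), Gria4 (19.7 ± 1.26), Grik3 (17.1 ± 1.79) and Grik2 (13.9 ± 1.12 CPM per kilobase) came next. Gria4 exceeded Grik3 in 18 of 20 libraries, and each of the other neighbours in the order kept its place in 20 of 20. The genes of the high-affinity subunit GluK4 and of GluK1 were lowest, with Grik4 at 4.07 ± 0.325 and Grik1 at 2.59 ± 0.599 CPM per kilobase. Dividing by the longest coding transcript, a choice made after the data were seen, kept the means of Gria1, Gria2, Grik5, Gria3 and Gria4 in that order. Gria1 (93.9 ± 4.78) and Gria2 (89.2 ± 7.82 CPM per kilobase) then lay close together. That length put Grik2 (19.5) above Grik3 (17.1) and Grik1 (4.76) above Grik4 (4.12 CPM per kilobase).

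**Figure D2:**
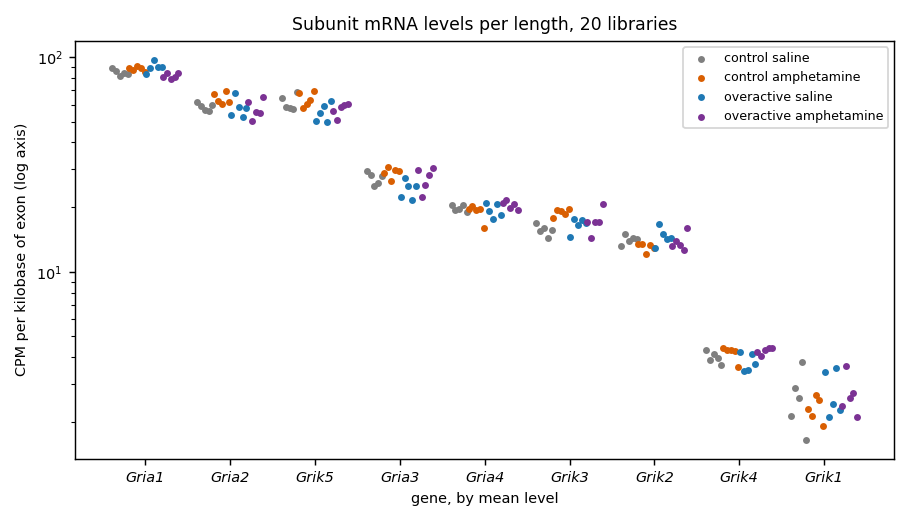
Level of each subunit mRNA in CPM per kilobase of annotated exon (log y axis), with genes on the x axis ordered by mean. Each point is 1 of 20 libraries, coloured by group. Gria1 stands highest (79.1 to 97.1), Gria2 and Grik5 overlap, and Grik4 and Grik1 stand lowest.

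Within the AMPA family, Gria1 made up 44.8 ± 1.97%, Gria2 30.9 ± 1.47%, Gria3 14.0 ± 1.14% and Gria4 10.3 ± 0.952% of the summed level per kilobase of annotated exon (SD over 20 libraries). Per kilobase of the longest coding transcript these shares were 36.6 ± 1.96%, 34.7 ± 1.38%, 19.9 ± 1.44% and 8.89 ± 0.872%. The size of the lead of Gria1 over Gria2 thus depended on the length used. Within the kainate family, per kilobase of annotated exon, Grik5 made up 61.1 ± 2.47%, Grik3 17.6 ± 1.42%, Grik2 14.4 ± 1.45%, Grik4 4.22 ± 0.435% and Grik1 2.71 ± 0.780%. The longest coding transcript gave Grik5 64.0 ± 2.56% and put Grik2 (15.4 ± 1.54%) above Grik3 (13.5 ± 1.15%). One subunit that needs a partner thus held most of the kainate mRNA. The summed AMPA level was 1.99 ± 0.0960 times the summed kainate level per kilobase of annotated exon. The range was 1.78 to 2.15 over the 20 libraries, and the longest coding transcript gave 2.03 ± 0.0945.

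Within groups, the coefficient of variation between libraries was 13.2% to 30.9% for Grik1, the lowest-expressed member, at 11.1 to 25.5 CPM. It was at most 13.2% for each of the other 8 members, and 2.31% to 5.52% for Gria1.

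No AMPA or kainate subunit passed the test for a change after amphetamine in either line, and the largest difference whose 95% interval left out 0 was that of Grik3 in the control line, 1.21-fold higher with amphetamine. The comparison within each line asks whether the drug moves these mRNAs by 2 hours. In bulk tissue, fewer cells of a type and less RNA per cell cannot be told apart. With edgeR's quasi-likelihood test and Benjamini-Hochberg adjustment, 0 of 9 members passed in the control line, in the overactive line or over both lines, where 0% of the 17206 genes passed in each case. At an unadjusted p under 0.05, 1 member passed in the control line (5.56% of all genes did), 2 in the overactive line (8.03%) and 4 over both lines (11.0%). DESeq2 called 0 members in each case, against 0% of genes in the control line, 0.247% in the overactive line and 1.06% over both. The members' median log2 fold change was 0.06 in the control line, 0.05 in the overactive line and 0.05 over both, against -0.00, -0.00 and -0.01 for all genes tested.

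Among the AMPA subunits, Gria1 in the overactive line had the smallest p. Gria1 encodes GluA1, the subunit whose phosphorylation and insertion are closely tied to synaptic potentiation. In overactive saline libraries 1 to 5 it measured 502, 538, 587, 544 and 546 CPM, and in overactive amphetamine libraries 487, 507, 478, 487 and 510 CPM. The amphetamine libraries were mostly lower, but amphetamine libraries 2 and 5 lay above saline library 1, so the groups overlapped. Its log2 fold change was -0.14 (SE 0.04, 95% interval -0.22 to -0.05, edgeR adjusted p = 0.371). Without the 4 libraries highest in thalamic markers it was -0.16 (edgeR adjusted p = 0.131). The 12 striatal projection neuron markers had the same sign, 12 of 12 lower with a median log2 fold change of -0.16, and none passed. Whether they have a part in the Gria1 value was not tested.

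In the control line Gria1 stood at 540, 518, 493, 511 and 504 CPM with saline and at 536, 525, 546, 539 and 515 CPM with amphetamine. These ranges overlapped widely, and the log2 fold change was 0.05 (SE 0.04, 95% interval -0.03 to 0.14, edgeR adjusted p = 0.894). The difference between the lines in the Gria1 response was -0.19 (SE 0.06, 95% interval -0.31 to -0.07). Its unadjusted edgeR p was 0.00343, and its adjusted p was 1.0.

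Gria2, which encodes the calcium-limiting subunit GluA2, measured 963, 916, 878, 867 and 932 CPM in control saline and 1042, 965, 936, 1080 and 955 CPM in control amphetamine libraries. Of the amphetamine libraries 3 lay above every saline library, while the others fell inside the saline range. This gave a log2 fold change of 0.13 (SE 0.07, 95% interval -0.03 to 0.28, edgeR adjusted p = 0.889). In the overactive line the saline libraries held 831, 1059, 913, 814 and 901 CPM and the amphetamine libraries 956, 783, 862, 849 and 1008 CPM. The 2 groups covered much the same range, and the log2 fold change was -0.02 (95% interval -0.17 to 0.13).

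Gria3, on the X chromosome, encodes GluA3, which pairs mainly with GluA2. It measured 290, 278, 246, 255 and 276 CPM in control saline and 285, 303, 261, 294 and 290 CPM in control amphetamine libraries, a log2 fold change of 0.09 (95% interval -0.08 to 0.26). Overactive libraries held 219, 271, 247, 212 and 246 CPM with saline and 293, 220, 250, 278 and 301 CPM with amphetamine, a log2 fold change of 0.17 (95% interval -0.00 to 0.34, edgeR adjusted p = 0.62). The lowest values of both overactive groups came from libraries among the 4 highest in thalamic markers. Over both lines the log2 fold change of Gria3 was 0.13 (SE 0.06, edgeR adjusted p = 0.404), and with the cortical marker score as a covariate it was 0.03. The cortical markers were higher with amphetamine for 11 of 12 genes over both lines (median log2 fold change 0.91), and none passed.

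Gria4 encodes GluA4, which in forebrain is found mostly in interneurons. Its group means were 125 ± 3.93 CPM in control saline, 120 ± 10.4 in control amphetamine, 122 ± 9.38 in overactive saline and 129 ± 5.41 in overactive amphetamine (SD, n = 5). With amphetamine the log2 fold change was -0.06 (95% interval -0.19 to 0.06) in the control line and 0.08 (95% interval -0.04 to 0.20) in the overactive line. Control amphetamine library 5, at 101 CPM, lay below every other library.

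**Figure D3:**
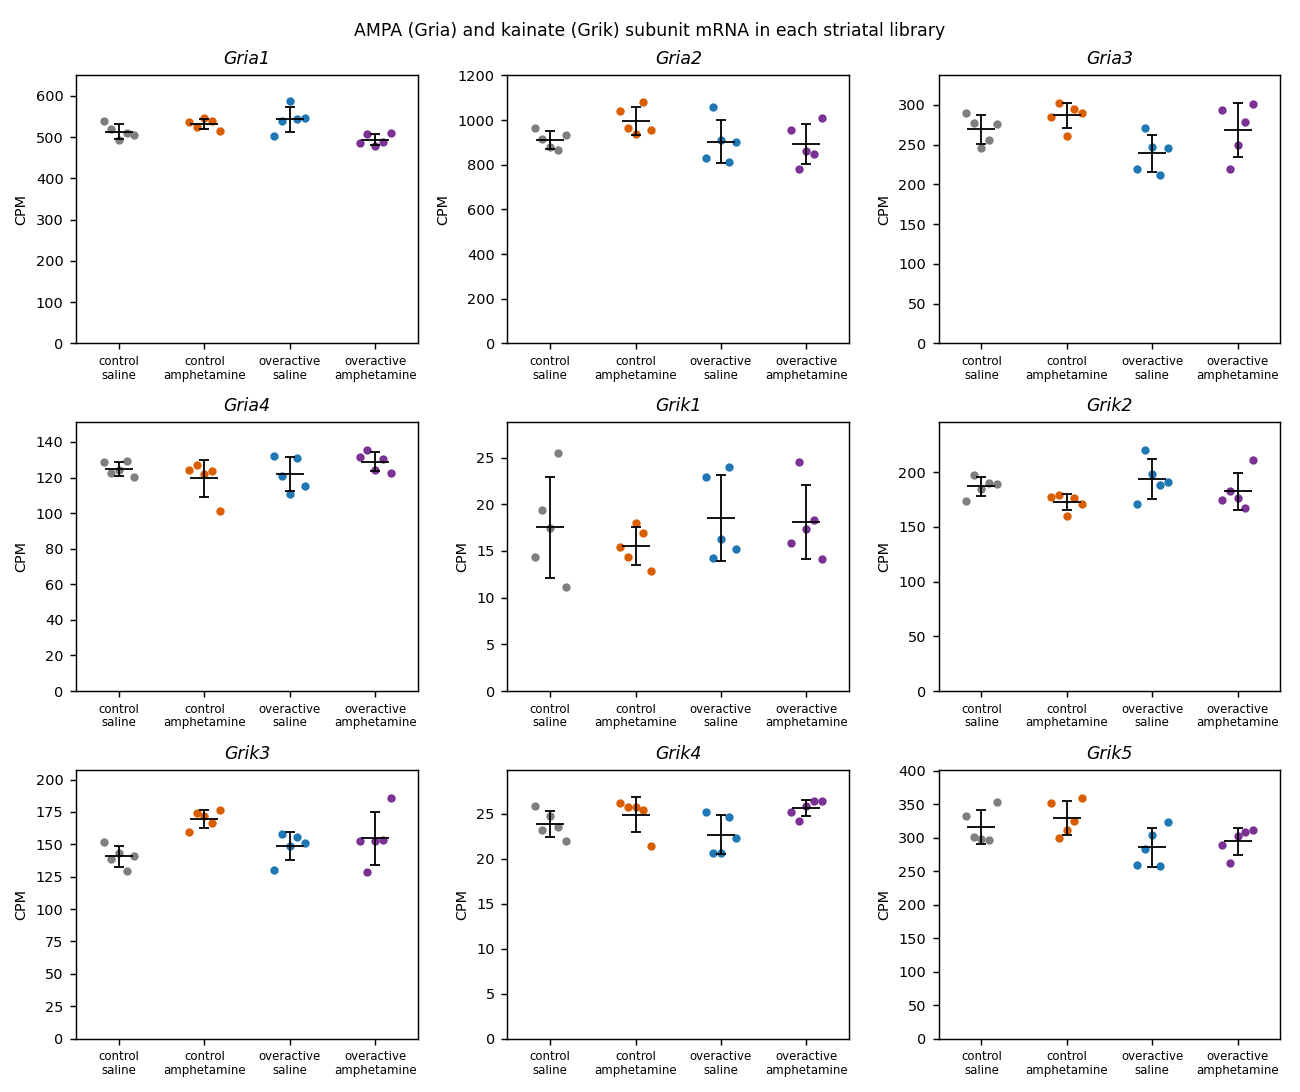
CPM of each of the 9 subunit genes (y axis, from 0) in every library by group (x axis). Points are libraries 1 to 5 from left to right, bars the mean ± SD. Control amphetamine lies wholly above control saline for Grik3 (159 to 177 against 130 to 152 CPM), and overactive amphetamine wholly below control amphetamine for Gria1.

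Of the kainate subunits, Grik3 stood apart by library in the control line. Grik3 encodes GluK3, a subunit with low sensitivity to glutamate that has been placed at presynaptic sites. The saline libraries held 152, 138, 143, 130 and 141 CPM and the amphetamine libraries 159, 175, 172, 167 and 177 CPM. Every amphetamine library lay above every saline library. Grik3 was the single member with this pattern among 9, where 1.0% of the genes tested had no overlap in the control line. The log2 fold change was 0.27 (SE 0.07, 95% interval 0.12 to 0.43, edgeR adjusted p = 0.856), which did not pass over all genes. Leaving out each library in turn gave log2 0.24 to 0.30.

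In the overactive line Grik3 measured 130, 158, 149, 156 and 151 CPM with saline and 152, 128, 153, 154 and 186 CPM with amphetamine. The groups overlapped, with the lowest and the highest library both in the amphetamine group, and the log2 fold change was 0.06 (SE 0.07, 95% interval -0.10 to 0.21). In the overactive line 0 of 9 members were free of overlap, against 0.761% of all genes. The difference between the lines in the Grik3 response was -0.21 (95% interval -0.43 to 0.00, edgeR adjusted p = 1.0). Over both lines the log2 fold change was 0.16 (SE 0.05, edgeR adjusted p = 0.236), 0.19 without the 4 libraries (adjusted p = 0.067) and 0.11 with the cortical covariate (adjusted p = 1.0).

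Grik4 encodes the high-affinity subunit GluK4. Overactive saline libraries held 25.2, 20.6, 20.7, 24.7 and 22.3 CPM, and overactive amphetamine libraries 25.2, 24.2, 25.9, 26.4 and 26.4 CPM. Amphetamine libraries 1, 3, 4 and 5 lay above every saline library, library 1 only just, and library 2 inside the saline range, with a log2 fold change of 0.18 (SE 0.07, 95% interval 0.03 to 0.32, edgeR adjusted p = 0.483). Without the 4 libraries highest in thalamic markers, which left 3 libraries in each overactive group, it was 0.31 (edgeR adjusted p = 0.0953). With the cortical marker score as a covariate it was 0.10 (edgeR adjusted p = 1.0), and 12 of 12 cortical markers were higher in value with amphetamine in this line (median log2 fold change 1.36, none passed). In the control line the means were 23.9 ± 1.49 with saline and 24.9 ± 1.97 CPM with amphetamine (log2 fold change 0.06, 95% interval -0.08 to 0.21).

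Grik2 encodes GluK2, the main channel-forming kainate subunit of much of the brain. It measured 174, 198, 185, 190 and 189 CPM in control saline and 178, 179, 160, 176 and 171 CPM in control amphetamine libraries. Most amphetamine libraries lay low, but saline library 1 lay among them, and the log2 fold change was -0.11 (95% interval -0.25 to 0.02). In the overactive line it was -0.09 (95% interval -0.22 to 0.05), and over both lines -0.10 (SE 0.05, edgeR adjusted p = 0.421). Over both lines Gria3, Grik3 and Grik4 had positive values at an unadjusted p under 0.05, and Grik2 a negative one.

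Grik5 means were 317 ± 25.3 and 330 ± 25.6 CPM in control saline and amphetamine, and 285 ± 28.6 and 295 ± 20.2 CPM in overactive saline and amphetamine (SD, n = 5). With amphetamine the log2 fold change was 0.06 (95% interval -0.09 to 0.21) in the control line and 0.05 (95% interval -0.11 to 0.20) in the overactive line. Grik1, which encodes GluK1, had means of 17.5 ± 5.42, 15.5 ± 2.05, 18.5 ± 4.59 and 18.1 ± 3.96 CPM in the order control saline, control amphetamine, overactive saline and overactive amphetamine. Its intervals were the widest of the 9, with a log2 fold change of -0.18 (95% interval -0.59 to 0.24) in the control line and -0.04 (95% interval -0.45 to 0.38) in the overactive line.

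Between the lines, no subunit passed edgeR's test, and Grik5 came nearest, at 0.898-fold in the overactive line over both treatments. This comparison asks what the selected line differs in, at rest and under the drug. With edgeR and Benjamini-Hochberg adjustment, 0 of 9 members passed with saline (1.11% of all genes passed), 0 with amphetamine (0.453%) and 0 over both treatments (7.02%). At an unadjusted p under 0.05 the counts were 1 (17.3% of genes), 3 (12.9%) and 2 (25.6%). DESeq2 called 0 members with saline (4.44% of genes), 0 with amphetamine (1.87%) and 1, Grik5, over both (12.2%). Medians over the 9 members were log2 -0.01, -0.09 and -0.02 in that order, against -0.00, 0.00 and 0.00 over all genes. The line and the amphetamine comparisons use the same 20 libraries, so their values are not independent of each other.

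Grik5 encodes GluK5, the most abundant kainate subunit mRNA here. Control saline libraries 1 to 5 held 333, 301, 299, 297 and 353 CPM, and overactive saline libraries 259, 284, 305, 257 and 323 CPM. Control amphetamine libraries held 352, 300, 312, 324 and 360 CPM, and overactive amphetamine libraries 289, 262, 303, 308 and 311 CPM. The overactive libraries tended to be low in both treatments, and the groups overlapped in both. The log2 fold change of the overactive against the control line was -0.15 (95% interval -0.30 to 0.00) with saline, -0.16 (95% interval -0.31 to -0.01) with amphetamine and -0.16 over both (SE 0.05, 95% interval -0.26 to -0.05, edgeR adjusted p = 0.0703).

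The call on Grik5 over both treatments depended on the fit. It passed with DESeq2 (adjusted p = 0.0347) and in edgeR without overactive saline library 5 (adjusted p = 0.0379). Without the 4 libraries highest in thalamic markers the log2 fold change was -0.09 (edgeR adjusted p = 0.40), and with the cortical marker score as a covariate it was also -0.09 (edgeR adjusted p = 0.543). Over both treatments the cortical markers were lower in the overactive line for 11 of 12 genes (median log2 fold change -0.71, 2 passed), and the thalamic and neighbouring markers were higher for 10 of 10 (median 0.70, none passed). The 4 libraries left out were all overactive, and the cortical markers differed in value between the lines. These fits therefore cannot separate line from tissue makeup. Whether tissue makeup has a part in the Grik5 value was not tested.

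**Figure D4:**
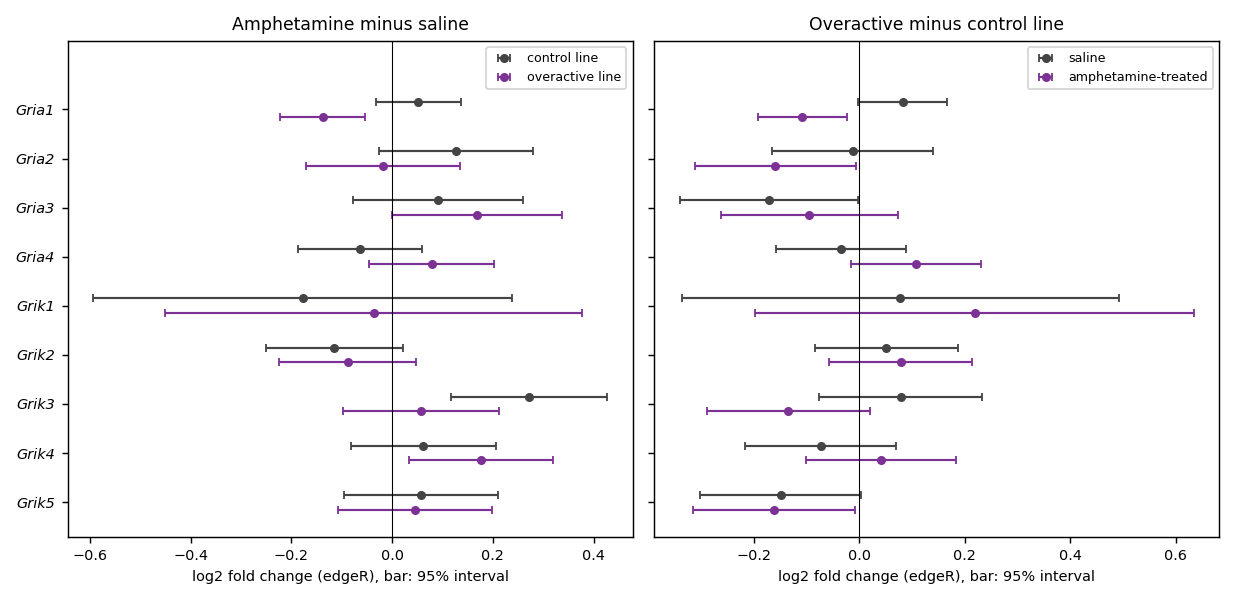
Log2 fold change with its 95% interval (x axis) for each subunit gene (y axis), from edgeR. Left, amphetamine minus saline in each line. Right, overactive minus control line in each treatment. On the left, the intervals of Grik3 in the control line (0.27) and Grik4 in the overactive line (0.18) lie above 0, and that of Gria1 in the overactive line (-0.14) lies below. On the right, with amphetamine, those of Gria1, Gria2 and Grik5 lie below 0 (-0.11, -0.16 and -0.16), and that of Gria3 with saline (-0.17) lies just below.

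Gria1 was the single member whose libraries did not overlap between the lines, with amphetamine (2.93% of genes had no overlap there). All 5 overactive amphetamine libraries, at 478 to 510 CPM, lay below all 5 control amphetamine libraries, at 515 to 546 CPM. The log2 fold change was -0.11 (SE 0.04, 95% interval -0.19 to -0.02, edgeR adjusted p = 0.273). With saline it had the opposite sign, 0.08 (95% interval -0.00 to 0.17), and 0 of 9 members were free of overlap (4.26% of genes were). With amphetamine, 11 of 12 striatal projection neuron markers were lower in the overactive line as well, with a median log2 fold change of -0.24 and none past the test, and their part in the Gria1 value was not tested.

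Gria3 was lower in value in the overactive line in both treatments, with a log2 fold change of -0.17 with saline (95% interval -0.34 to -0.00, edgeR adjusted p = 0.281) and -0.09 with amphetamine (95% interval -0.26 to 0.07). Over both treatments it was -0.13 (SE 0.06, edgeR adjusted p = 0.15), and -0.03 without the 4 libraries highest in thalamic markers or -0.05 with the cortical covariate. With those libraries left out it was -0.09 with saline and 0.02 with amphetamine. Gria2 had a log2 fold change of -0.16 with amphetamine (95% interval -0.31 to -0.01, edgeR adjusted p = 0.37) and -0.01 with saline (95% interval -0.17 to 0.14). These values were -0.08 (edgeR adjusted p = 0.825) and 0.07 without the 4 libraries. The remaining members, Gria4, Grik1, Grik2, Grik3 and Grik4, had intervals that included 0 in both treatments. Their log2 fold changes ranged from -0.13 for Grik3 to 0.22 for Grik1, both with amphetamine.

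The drug response of the subunits was not shown to differ between the lines. In edgeR's test of that difference 0 of 9 members passed (0% of genes), 1 member, Gria1, had an unadjusted p under 0.05 (2.96% of genes) and DESeq2 called 0 (0% of genes).

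Subunit ratios within a library do not depend on the scaling between libraries. The log2 ratio of Gria1 to Gria2 per kilobase was 0.54 ± 0.04 in control saline, 0.46 ± 0.09 in control amphetamine, 0.63 ± 0.15 in overactive saline and 0.52 ± 0.15 in overactive amphetamine (SD, n = 5). Per kilobase of the longest coding transcript it was 0.08, 0.00, 0.17 and 0.06 in that order, so the excess of Gria1 over Gria2 depended on the length used. The log2 ratio of Gria2 to the sum of Gria1, Gria3 and Gria4 was -1.17 ± 0.04, -1.09 ± 0.08, -1.21 ± 0.13 and -1.18 ± 0.12 in the same order. Both ratios overlapped between all groups, and their spread was larger in the overactive line. The log2 ratio of the partner-requiring Grik4 and Grik5 to Grik1, Grik2 and Grik3 was 1.01 ± 0.13, 0.98 ± 0.12, 0.80 ± 0.15 and 0.86 ± 0.10. It was lowest in overactive saline libraries 4 and 2, at 0.62 and 0.68, and overlapped between all groups. These ratios are a description and carry no test.

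**Figure D5:**
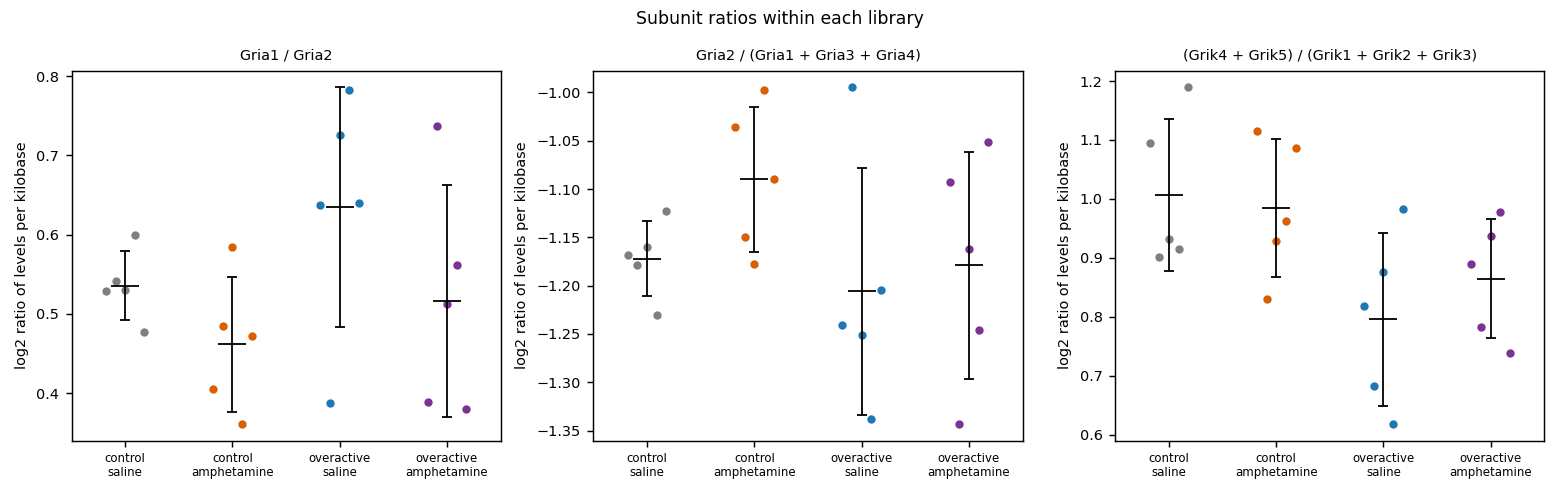
Log2 ratio of subunit levels per kilobase (y axis) in each library by group (x axis), for Gria1 to Gria2, Gria2 to the other AMPA subunits, and Grik4 plus Grik5 to Grik1 to Grik3. Points are libraries, bars the mean ± SD of 5. All groups overlap in each panel, and the mean of the kainate ratio is lower in both overactive groups (0.80 and 0.86) than in the control groups (1.01 and 0.98).

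Across the 20 libraries, which share the 4 group means and differ in tissue makeup, Gria2 and Gria3 moved together most among the 36 pairs of members (Pearson r of log2 CPM 0.79). Grik1 and Grik5 were the most opposed (r = -0.75), and Gria3 and Grik1 followed (r = -0.70). Of 14369 genes searched, the closest to Gria1 were Cxx1a (r = 0.78) and Pdyn (r = 0.77), the prodynorphin gene of direct-pathway projection neurons. Gria2 was closest to D3Bwg0562e (0.94) and Slk (0.90), a protein kinase gene. Gria3 was closest to Rasgrp1 (0.94), which encodes a Ras activator, and Cnksr2 (0.93), and Gria4 to Tubb3 (0.86), a neuronal tubulin, and Casz1 (0.83). For the kainate genes, Grik1 was closest to Dgkq (0.93) and Slc7a3 (0.90), Grik2 to Gprin3 (0.83) and N4bp2l2 (0.81), and Grik3 to Trio (0.84) and Klf7 (0.78). Grik4 was closest to Pde5a (0.85) and Ptpru (0.85), and Grik5 to Slc8a2 (0.90), a sodium-calcium exchanger gene, and C030046I01Rik (0.90). These are the highest of many correlations and are given as a description.

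The genes that act with these receptors were followed as a list of 44: 12 AMPA auxiliary subunits, 5 kainate receptor partners, 6 assembly and editing genes, 9 scaffold and trafficking genes, 9 synaptic organisers and kinases, and 3 delta receptor genes. All 44 were tested, and Cnih2, Klhl17 and Nptxr were counted in loci shared with other symbols. After amphetamine 0 of 44 passed edgeR's test in either line or over both, although 34 of 44 had positive values in the control line, 30 in the overactive line and 36 over both (medians log2 0.08, 0.05 and 0.06). Of all 17206 genes tested, 8403, 8306 and 8169 had positive values. At an unadjusted p under 0.05 there were 5, 11 and 9 of the 44 (5.56%, 8.03% and 11.0% of all genes), and DESeq2 called 0, 1 and 3 (0%, 0.247% and 1.06% of all genes). In the control line the smallest p values belonged to Shisa6 (0.27), an auxiliary subunit, Frrs1l (0.25), which acts in AMPA receptor assembly, and C1ql3 (0.60), a secreted synaptic organiser (log2 fold changes, edgeR adjusted p = 0.88 for each).

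In the overactive line the smallest p values belonged to Cacng7 (log2 fold change 0.23, edgeR adjusted p = 0.357), a TARP auxiliary subunit, C1ql3 (0.98, adjusted p = 0.364) and Cnih3 (0.66, adjusted p = 0.384), a cornichon auxiliary subunit. DESeq2 called Cacng7 there (adjusted p = 0.031). Over both lines C1ql3 (0.79), Cnih3 (0.51) and Frrs1l (0.26) came first, with edgeR adjusted p = 0.21, 0.21 and 0.212. DESeq2 called these 3 (adjusted p = 0.0318, 0.0377 and 0.0442). Without the 4 libraries highest in thalamic markers, edgeR called C1ql3 (log2 1.0, adjusted p = 0.0443) and Frrs1l (0.30, adjusted p = 0.0497). That fit called 80 of 17353 genes over both lines, against 0 of 17206 in the main fit. With the cortical marker score as a covariate the log2 fold changes over both lines were 0.32 for C1ql3, 0.12 for Cnih3 and 0.10 for Frrs1l. None of these 3 passed (edgeR adjusted p = 1.0 for each), and 0 of 17206 genes passed in that fit. In the overactive line alone that covariate gave 0.32 for C1ql3, 0.08 for Cnih3 and 0.15 for Cacng7, and in the control line 0.33 for C1ql3, 0.23 for Shisa6 and 0.16 for Frrs1l. Over both lines 11 of 12 cortical markers were higher in value with amphetamine (median log2 fold change 0.91, none passed).

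Of these 44 genes, 4 passed edgeR's test between the lines over both treatments, all lower in the overactive line. Of all 17206 genes 7.02% passed in either direction, 638 higher and 570 lower. At an unadjusted p under 0.05 there were 16 of 44 (25.6% of all genes), and DESeq2 called 5 (12.2%). With saline 1 of 44 passed (1.11% of all genes did). Over both treatments 3 of the 4 were Gsg1l (log2 fold change -0.30, edgeR adjusted p = 0.0275), an AMPA auxiliary subunit, Camk2b (-0.19, adjusted p = 0.0292), a subunit of the calcium-calmodulin kinase CaMKII, and Frrs1l (-0.26, adjusted p = 0.0328), listed as 6430704M03Rik.

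Camk2b stood at 1350 ± 79.9 and 1361 ± 72.1 CPM in the control groups and 1179 ± 135 and 1191 ± 98.1 CPM in the overactive groups, with saline and amphetamine in that order. Gsg1l stood at 127 ± 14.7 and 139 ± 9.56 CPM in the control groups and 104 ± 17.5 and 112 ± 15.4 CPM in the overactive groups. None of these 3 kept its call with the cortical marker score as a covariate, where the log2 fold changes were -0.16 for Gsg1l, -0.13 for Camk2b and -0.12 for Frrs1l (edgeR adjusted p = 0.406, 0.345 and 0.475). None kept it without the 4 libraries highest in thalamic markers either (edgeR adjusted p = 0.215, 0.232 and 0.197). With saline the count was 0 of 44 in both of these fits. Calls over all genes fell as well. The main fit called 191 with saline and 1208 over both treatments, of 17206. The covariate fit called 21 and 180 of 17206, and the fit without the 4 libraries 95 and 323 of 17353.

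Leaving out 1 library also ended these 3 calls over both treatments in edgeR. That on Gsg1l ended without control saline 5, control amphetamine 2, overactive saline 1 or 4, or overactive amphetamine 2. That on Camk2b ended without control saline 5, control amphetamine 5, overactive saline 1, 3 or 4, or overactive amphetamine 2 or 3. That on Frrs1l ended without control saline 1 or 5, control amphetamine 1 or 4, overactive saline 1, 3 or 4, or overactive amphetamine 3. The adjusted p values in these fits were 0.05 to 0.0714.

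With saline 30 of 44 and with amphetamine 33 of 44 had negative values in the overactive line (medians log2 -0.05 and -0.09), as did 8615 and 8431 of the 17206 genes tested. With amphetamine 0 of 44 passed (0.453% of all genes), 9 had an unadjusted p under 0.05 (12.9%) and DESeq2 called 0 (1.87%). Among the smallest p values there were those of Dlg3 (log2 fold change -0.19, edgeR adjusted p = 0.214), a synaptic scaffold gene, and Gsg1l (-0.31, adjusted p = 0.248). Over the alternative fits the log2 fold change ran from -0.22 to -0.11 for Dlg3 and from -0.37 to -0.21 for Gsg1l, and neither passed. In the test of the difference between lines in the drug response 0 of 44 passed (0% of all genes), 1 had an unadjusted p under 0.05 (2.96%) and DESeq2 called 0 (0%). Cacng7 (0.23) and Cacng5 (-0.52), another TARP gene, were among those with the smallest p values there (edgeR adjusted p = 1.0 for each).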

How the data were processed

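The authors deposited 1 table of expected counts per locus, not scaled between libraries. The submitters' processing notes name mm10 and GRCm38, and the aligner and counting tool are not given in the sources used here. Loci without a symbol (10576, 0.65% of counts, 0.591% to 0.714% per library) were left out, and expected counts were rounded. The analysis used edgeR 4.0.16 under R 4.3.3, with filterByExpr on the 4 groups, TMM scaling, and 1 quasi-likelihood model with a mean per group over all 20 libraries, two-sided, Benjamini-Hochberg adjusted over 17206 genes and called at an adjusted p under 0.05. Replicate numbers were not taken as pairs. Mice are the replicates, and a p-value sets a group difference against the spread between libraries within groups. It does not cover a spread between families or litters of a line.

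Levels are TMM-scaled CPM, and per-kilobase levels divide by the union of exons in GENCODE M21. All 9 members are described. Of the list of 44, every gene that passed in a comparison is named, or else the 3 with the smallest p. Values of 2 genes of that list are not reported here, though they stay in its counts. For each member the 2 genes with the highest Pearson r of log2 CPM (prior count 2, mean of at least 1 CPM) are named. The members and lists were chosen with earlier results of these data known.

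Alternatives were RLE scaling, no filter, only the groups compared, the replicate block, the cortical marker score as a covariate, leaving out the 4 libraries highest in thalamic markers, DESeq2 1.42.0, leaving out each library, and raw counts in ratios. On data simulated for amphetamine in the control line (17103 genes), the share of changed genes found was 30% at 1.25-fold, 62% at 1.5-fold, 86% at 2-fold and 96% at 4-fold, and 5 calls were false. The simulated data held 50 changed genes at each fold and no shared differences in tissue makeup between libraries, so these shares may be too high for the real counts. Figures used matplotlib 3.10.9.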

Additional observations from a re-analysis of the deposited data

Results flagged for a closer look

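Among 36 groups of 5 libraries (9 genes by 4 groups), 2 held a library far from the other 4. Both were control amphetamine library 5. Gria4 stood at 101 CPM there against 122 to 127 CPM in the other 4 libraries, with a gap of 0.805 of the whole range. Grik4 stood at 21.4 CPM against 25.5 to 26.3 CPM, with a gap of 0.836 of the range. The critical value (Dixon, 5 samples) is 0.71, and chance passes it in about 1 of 20 groups.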

How the results depend on the processing

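Of 1314 recomputed values for the 63 member fold changes, 1256 kept their sign and side of the threshold, 55 (in 22 results) reversed and 3, all Grik5 over both treatments, passed. The replicate number is not known to pair mice. Deviations of same-numbered libraries correlated at -0.23 to 0.25 over 30 pairs (median 0.035, 10 pairs over 0.1). Those of other-numbered libraries correlated at -0.34 to 0.30 over 120 pairs (median -0.0085, 19 pairs over 0.1). These values cannot settle whether libraries of the same number shared a batch. The replicate block called 51 genes between lines with amphetamine (78 without) and 1 member, Grik5, over both treatments (log2 -0.15, edgeR adjusted p = 0.0397). DESeq2 called 40 genes for amphetamine in the overactive line, 161 over both lines, and 764, 322 and 2095 between lines (saline, amphetamine, both), with 1 member in the last. It called 1 gene of the list of 44 in the overactive line and 3 over both lines. Fitting only the groups compared gave 50 genes between lines with amphetamine. The cortical covariate gave 21 genes with saline and 180 over both, with 0 of the list in each. Without the 4 libraries highest in thalamic markers the counts were 31 for amphetamine in the overactive line, 80 over both lines (2 of the list), and 95, 17 and 323 between lines (0 of the list with saline and over both). Leaving out 1 library gave 0 to 4 genes for amphetamine over both lines (4 without control saline 1 or overactive amphetamine 2). Between lines it gave 67 to 218 genes with saline (75 without overactive saline 4, 67 without control saline 5, 100 to 124 without control saline 1, 2 or 3 or overactive saline 3). It gave 23 to 77 with amphetamine (23 without overactive amphetamine 2, 35 to 43 without control amphetamine 3, 4 or 5) and 770 to 1414 over both (770 to 783 without control saline 5, overactive saline 4 or overactive amphetamine 2). The ranges were 0 to 1 for members over both, and 0 to 1 (saline) and 1 to 6 (both) for the list. The list's count over both treatments was 1 without control saline 5, overactive saline 1 or overactive saline 4, and 2 without overactive saline 3, overactive amphetamine 2 or overactive amphetamine 3. The cortical covariate reversed log2 values for amphetamine in the overactive line (Grik1 0.28, Grik3 -0.024, Grik5 -0.055), over both lines (Grik1 0.14, Grik5 -0.018), between lines with saline (Grik1 -0.19, Grik2 -0.026, Gria2 0.041), over both treatments (Grik1 -0.049, Grik3 0.021, Grik4 0.030) and in the difference between lines (Gria3 -0.0076). Leaving out the 4 libraries reversed Grik1 (0.093) for amphetamine in the overactive line, Grik1 (-0.21) and Gria2 (0.066) with saline, Gria3 (0.023) with amphetamine, Gria1 (0.0040), Grik1 (-0.075), Grik3 (0.031) and Gria4 (-0.0077) over both treatments, and Grik2 (-0.021) in the difference. Leaving out 1 library turned signs for amphetamine in the overactive line (Gria2 -0.067 to 0.046, Grik1 -0.17 to 0.071, Grik3 -0.017 to 0.11) and over both lines (Gria4 -0.0085 to 0.035). It did so between lines with saline (Gria2 -0.078 to 0.030, Gria4 -0.059 to 0.0044, Grik1 -0.049 to 0.25, Grik2 -0.0013 to 0.099), with amphetamine (Grik4 -0.0086 to 0.061) and over both (Gria1 -0.024 to 0.0040, Grik3 -0.065 to 0.0050, Grik4 -0.041 to 0.0033). In the difference it did so for Grik1 (-0.032 to 0.27), Grik2 (-0.030 to 0.080) and Grik5 (-0.055 to 0.035). For each of these the cause was not tested. All 144 recomputed group differences in subunit log2 ratio stayed within 1 SD of the main value. Leaving out 1 of 5 libraries can hardly move a group mean that far. For Gria1 to Gria2, the gene lengths cancel in the group difference. Staying within 1 SD thus says little about how firm the ratios are. They were not recomputed with the cortical covariate or without the 4 libraries highest in thalamic markers. The 5 mice per group limit what can be seen: a 1.25-fold change was found in 30% of simulated cases in the control line. The simulation held 50 changed genes at each fold, which eases the adjusted threshold, and no shared differences in tissue makeup. In the real counts the share found may therefore be lower than 30%.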
